A study of Xenopus laevis with 6 samples.

Results

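The mitotic cyclins, kinases and spindle genes were examined as a set of 60 named genes, covering CDK1 with its cyclins, the enzymes that switch CDK1 on and off, other mitotic kinases, the spindle checkpoint, the machinery of anaphase, kinesin motors, kinetochore and spindle proteins, chromosome condensation factors and markers of proliferation. A feature of the count tables was taken as a member when its name without a final .L or .S equalled one of the 60 symbols. By this rule 57 of the genes were found, as 97 of 44958 features. Xenopus laevis is allotetraploid, and .L and .S denote the 2 homeologs of a gene on the long and short chromosomes. Both homeologs were present for 40 genes, only L for 15 and only S for 2 (kif20b and ncapd2), while kif4a, tpx2 and pttg1 had no feature of that name.

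To profile the effect of Neil2 knockdown, RNA-seq had been carried out on whole embryos at stage 23 (early tailbud). Embryos were obtained by in vitro fertilization and received 40 ng of control Morpholino (control MO) or of neil2 Morpholino (neil2 MO) into the animal hemisphere at the 1-cell stage. Per library 6 embryos were pooled, with 3 libraries per group numbered 1 to 3 in the titles. The labels give neither the clutch nor the day of a pool, so p-values measure the spread between these pools. Both groups share the injection and its dose, and no uninjected embryos were analysed here.

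A Morpholino is a synthetic antisense oligonucleotide. The sequences of both oligonucleotides are shown because they define the groups, with the capitals of the neil2 MO marking the complement of a start codon. An oligonucleotide of this kind blocks translation and need not lower its transcript.
Control MO: cctcttacctcagttacaatttata
neil2 MO: gtctgactgtgggaccttccggCAT

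Neil2 is a DNA glycosylase that opens base excision repair at oxidized bases. Entry into mitosis is driven by CDK1 bound to cyclin A or cyclin B. WEE1-type kinases and PKMYT1 hold CDK1 inactive, and CDC25 phosphatases release it. Once all chromosomes are attached at their kinetochores to a bipolar spindle, the spindle checkpoint frees CDC20, which makes the anaphase promoting complex destroy securin and the cyclins. Most of these transcripts oscillate with the cell cycle, so their level in a tissue is commonly read as a sign of how many cells are dividing. In a bulk library, fewer dividing cells and less RNA per dividing cell cannot be told apart.

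The 6 libraries held between 11534725 and 24034094 counted reads, and 3 counts in 1 library corresponded to between 0.125 and 0.260 CPM, the reads of a feature relative to all counted reads of its library and scaled to a fixed total. This floor covers counting error only. In the principal components of these libraries, the first (39.9% of the variance) set replicate 3 of both groups apart from the other 4 libraries and the second (24.6%) separated neil2 MO from control MO. The targeted transcript neil2.L had 3, 4 and 3 counts in control MO and 5, 4 and 15 counts in neil2 MO libraries, too few to be tested. Markers of all 6 tissue classes listed for an early tailbud embryo were detected. Of the 11 features of the egg and early cleavage list, 2 (sia1.S and velo1.S) stood at 0 in all libraries. Others of that list, such as vegt.L and mos.L, were counted in every library.

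No mitotic feature passed the thresholds of the comparison of neil2 MO with control MO embryos, although most fitted changes were above 0. Of the 97 members, 92 received an adjusted p-value in DESeq2. The other 5 were mad1l1.S, ccnb1.L, smc4.S, kif14.L and foxm1.L, of which mad1l1.S had no count and the others did not exceed 1.15 CPM in any library. In RefSeq v10.1, 10 members (cdc25b.L, plk4.L, plk4.S, fzr1.L, smc2.L, kif18a.L, bub1.L, ncapd2.S, kif20b.S and pkmyt1.L) overlap the span of another gene. Reads in more than 1 gene were not counted. Whether these 10 also overlap another gene in the annotation used for counting was not checked, so their values are uncertain. A feature was called at a Benjamini-Hochberg adjusted p below 0.1 over all features and an absolute log2 fold change above 0.5. By this rule 0 of 92 members were higher and 0 of 92 were lower, against 1.17% higher and 1.12% lower among the 23457 features tested. edgeR without the replicate block also called 0 of 92 members higher and 0 of 92 lower, against 0.298% and 0.294% of 23830 features. An unadjusted p below 0.05 was found for 8 of 96 members by DESeq2 (8.33%, against 6.51% of all features) and for 8 of 92 by edgeR (8.70%, against 10.3%). The smallest DESeq2 adjusted p was that of cdc20.S at 0.114.

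The fitted log2 fold changes of the 92 members had a median of 0.10 and lay between -0.69 and 1.03. Values above 0 were found for 65 members (70.7%), against 51.7% of all features tested, whose median was 0.01. At a mean normalized count of at least 100 the share above 0 was 70.1% of 87 members, against 55.7% of all features, with medians of 0.09 and 0.03. Without neil2 MO replicate 2 the median of the members was 0.06, and 56 of 92 were above 0. The 95% interval of the fold change stayed within 0.5 on either side of 0 for 40 members (43.5%) and within 1 for 81 members (88.0%), against 19.4% and 70.2% of all features. These intervals depend on the counts. Among features with a mean normalized count of at least 100, the shares within 0.5 were 46.0% for 87 members and 28.6% for all features. The shares within 1 were 93.1% and 90.4%. A change of more than 2-fold thus lay outside the interval for 81 of the 92 transcripts.

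**Figure D1:**
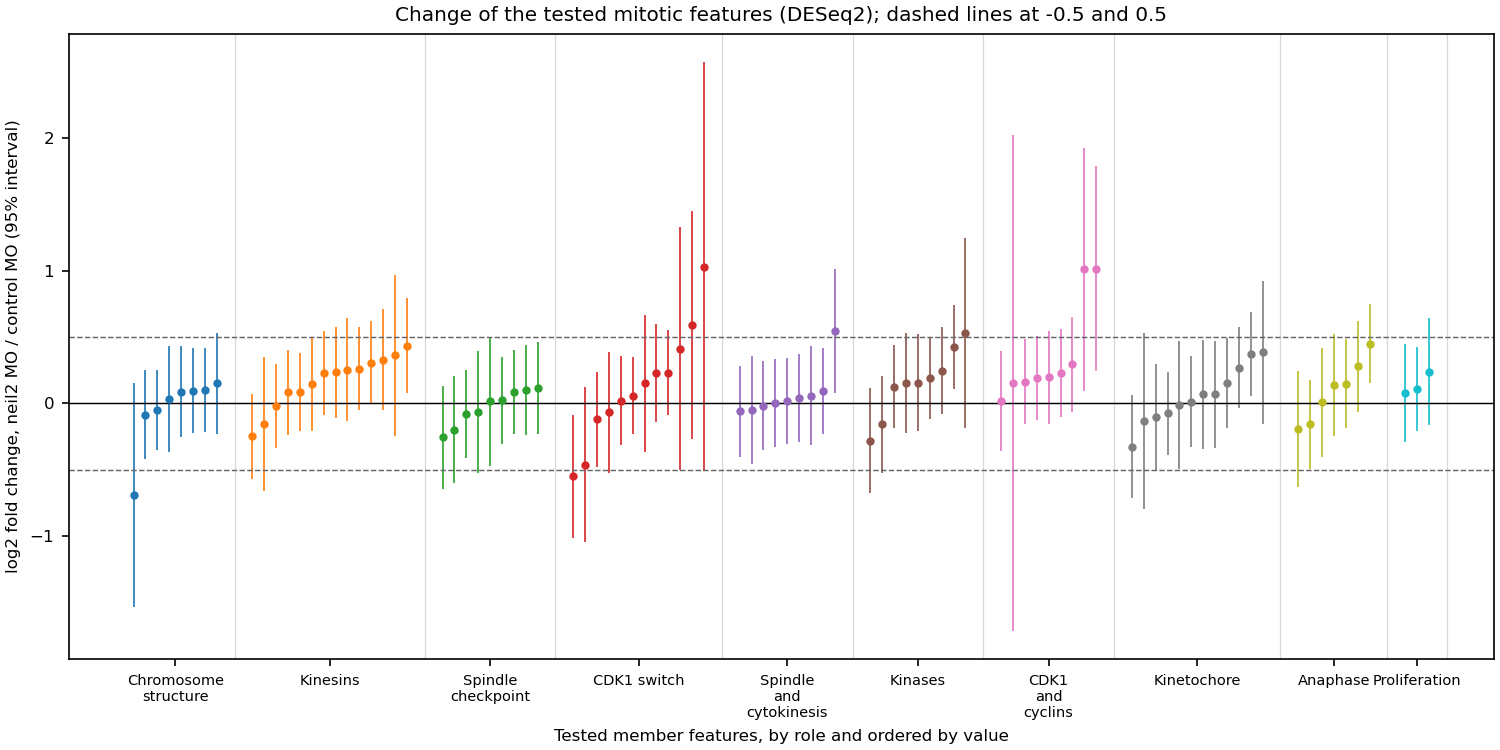
DESeq2 log2 fold change of neil2 MO over control MO (vertical axis) for each of the 92 tested mitotic features (points, ordered by value within each role along the horizontal axis), with lines for the 95% interval and dashed lines at -0.5 and 0.5. Most points lie between the dashed lines, and 65 of the 92 are above 0.

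Because libraries of equal number deviated together, a fit with the replicate number as a block was made as well. With this replicate block DESeq2 called 2 of 90 members higher (ccna1.L and ccna1.S), against 3.14% of 22050 features, and 1 of 90 lower (cdc25b.S), against 2.74%. edgeR with the block called 3 of 93 higher (the same 2 and nusap1.S), against 4.17% of 24531 features, and 2 of 93 lower (cdc25b.S and smc2.S), against 5.25%. At any size of change, 7 of 90 members (7.78%) passed the adjusted p in DESeq2 with the block, against 8.52% of 22050 features, with cenpe.L, kif23.S, cdc20.S and nek2.L beside the 3 called. Of the 7, 6 were higher in neil2 MO embryos, against 56.4% of the 1878 features that passed.

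The separation of the single libraries was also counted without a test. In 10 of 92 members (10.9%) all 3 neil2 MO CPM values lay above all 3 control MO values, against 6.14% of 23779 features. The opposite order was found for 4 members (4.35%), fzr1.L, cenph.L, cdc25b.S and kif15.S, against 10.2%. Within the pairs of equal replicate number, 28 members (30.4%) were higher in neil2 MO in all 3 pairs and 17 (18.5%) were lower, against 18.2% and 26.5% of all tested features. CPM depends on the library total, and with TMM factors the first counts became 18 above (19.6%, against 8.13% of all features) and 2 below (2.17%, against 8.03%).

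Summed over all 97 members, CPM were 6132, 6230.0 and 6088 in control MO and 6280.1, 6436 and 6258 in neil2 MO libraries. The neil2 MO sums all lay above the control MO sums, and their mean was 2.84% higher (6.36% with TMM factors). With TMM factors the groups nearly met, at 6275 CPM for the highest control MO and 6278 CPM for the lowest neil2 MO sum. The summed values of CDK1 with its cyclins and of the kinases were 10.99% and 9.04% higher in neil2 MO. In CPM from library totals they were without overlap for the kinases alone. The sum of CDK1 with its cyclins holds cyclin B1 only as ccnb1.L and ccnb1.S, which had few reads. It leaves out the ccnb1.2 and ccnb3 features given below. In the kinases nek2.L carried most of the difference, and without it the sums overlapped, at 513 to 583 CPM in control MO and 568 to 586 CPM in neil2 MO (3.77% higher). Leaving out 1 library moved the differences of CDK1 with its cyclins and of all kinases to between 7.39% and 14.5% and to between 6.43% and 12.1%. The differences of the spindle checkpoint and of the CDK1 switch were -4.62% and -5.47%, with overlap of the groups in both. With TMM factors they were -1.34% and -2.18%, again with overlap. Those of CDK1 with its cyclins and of the kinases were 14.8% and 12.8% at this scaling. The sums of CDK1 with its cyclins, the kinesins, the kinetochore genes and the anaphase genes were then without overlap as well. For the kinetochore genes the groups nearly met, at 583.6 CPM for the highest control MO and 584.3 CPM for the lowest neil2 MO sum. No test was made of these sums. Without control MO replicate 3, the sum of the 2 proliferation markers went from a difference of 4.09% to one of -0.31%. The sum over the chromosome structure genes was 0.28% higher and turned negative when control MO replicate 1, control MO replicate 3 or neil2 MO replicate 2 was left out.

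**Figure D2:**
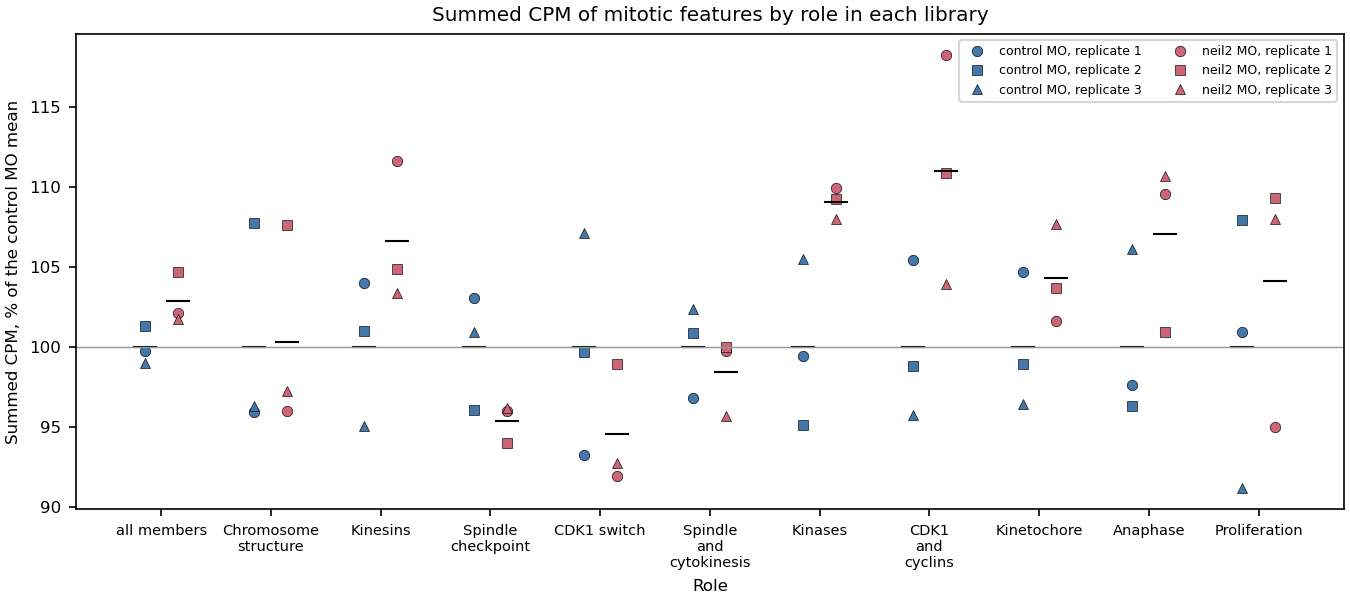
Summed CPM of the mitotic features in each library as a percentage of the control MO mean (vertical axis), for all members and for each role (horizontal axis), with control MO in blue, neil2 MO in red, a symbol for each replicate number and a line at each group mean. The neil2 MO libraries lie above all control MO libraries for all members together and for the kinases, the latter only with nek2.L included, and the small deficit of the spindle and cytokinesis genes (-1.55%) becomes an excess of 1.82% with TMM factors.

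CDK1 is the catalytic subunit that carries cells into mitosis. cdk1.L was measured at 74.3, 55.7 and 52.3 CPM in control MO and 67.6, 56.1 and 53.8 CPM in neil2 MO replicates 1 to 3, the order used for all values given here. cdk1.S stood at 51.4, 41.5 and 48.7 CPM against 59.6, 49.5 and 47.1 CPM. The groups overlapped for both homeologs, whose log2 fold changes were 0.02 ± 0.19 and 0.20 ± 0.18 (± SE, DESeq2 adjusted p = 0.997 and 0.882). Fold changes use the DESeq2 size factors, so a small one can differ in sign from that of the CPM means, as for cdk1.L with means of 60.8 ± 11.9 and 59.2 ± 7.36 CPM (SD, n = 3). Cyclin A2, the A-type cyclin of somatic cells, gave a similar picture. CPM of ccna2.L were 82.8, 79.3 and 71.3 in control MO and 87.8, 86.2 and 77.6 in neil2 MO, and those of ccna2.S were 44.2, 44.1 and 50.02 and 51.2, 49.8 and 50.8. Both homeologs overlapped between groups, with log2 fold changes of 0.16 ± 0.16 and 0.19 ± 0.16 (adjusted p = 0.906 and 0.860).

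Cyclin B2 partners CDK1 at mitotic entry. ccnb2.L had 43.5, 37.8 and 40.1 CPM in control MO and 51.1, 41.1 and 45.02 CPM in neil2 MO embryos. For ccnb2.S the values were 42.2, 49.4 and 38.0 and 54.2, 50.6 and 48.4 CPM. One control MO library reached into the neil2 MO range in each case, and the log2 fold changes were 0.23 ± 0.17 and 0.29 ± 0.18 (adjusted p = 0.787 and 0.683). The features named ccnb1.L and ccnb1.S held few reads, at most 0.694 and 1.47 CPM, and the fold change of ccnb1.S was 0.15 ± 0.96. In this annotation the reads of cyclin B1 were on ccnb1.2.L and ccnb1.2.S, for which the RefSeq table of the v10.1 assembly lists ccnb1 as a synonym. These are no members by the naming rule and were looked up after the low values had been seen. ccnb1.2.L had 119.6, 117 and 126 CPM in control MO and 146, 127 and 128 CPM in neil2 MO embryos, all above control, with a log2 fold change of 0.20 ± 0.15 (adjusted p = 0.813). ccnb1.2.S overlapped between groups, with a log2 fold change of 0.10 ± 0.17 (adjusted p = 0.978). Cyclin B3, also outside the set, was looked up as well and leaned the other way. ccnb3.S had 82.6, 78.2 and 84.4 CPM in control MO and 76.3, 77.8 and 65.2 CPM in neil2 MO, all below control. Its log2 fold change was -0.10 ± 0.17 (adjusted p = 0.973). ccnb3.L overlapped between groups, with a log2 fold change of -0.16 ± 0.20 (adjusted p = 0.946).

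Cyclin A1, which in Xenopus is supplied to the egg and used in early cleavage, had the largest fitted changes among members with a mean normalized count of at least 50. ccna1.L was measured at 1.89, 5.43 and 5.38 CPM in control MO and 5.54, 10.01 and 8.95 CPM in neil2 MO libraries. All neil2 MO values were above all control MO values, but the lowest of the former exceeded the highest of the latter only narrowly, and replicate 1 was the lowest in both groups. ccna1.S was measured at 2.28, 8.49 and 4.59 CPM and 6.47, 17.1 and 6.07 CPM. Here the groups overlapped, and replicate 2 was the highest in both. The log2 fold changes were 1.02 ± 0.39 and 1.01 ± 0.47, and neither passed the threshold without the block (adjusted p = 0.231 and 0.411). With the replicate block they were 1.09 and 1.03, and both rose (DESeq2 adjusted p = 0.00389 and 0.00574). Both homeologs were higher in neil2 MO in each of the 3 pairs, by 1.55, 0.88 and 0.73 (log2 of CPM) for ccna1.L and by 1.51, 1.01 and 0.40 for ccna1.S. In the fit without the block, the log2 fold change of ccna1.S was 0.31 when neil2 MO replicate 2 was left out, and 1.63, past the threshold (adjusted p = 0.0852), when control MO replicate 2 was left out. That of ccna1.L was 0.64 without control MO replicate 1.

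The 11 features of the egg and early cleavage list summed to between 14.0 and 19.2 CPM in control MO and between 23.7 and 27.9 CPM in neil2 MO libraries. Of these 11 features 4 were tested, of which 3 had a positive fold change and 1 passed. This was vegt.L, which encodes a transcription factor. It rose (log2 fold change 1.37, DESeq2 adjusted p = 1.3e-05) and was called by edgeR as well. Without vegt.L the sums of the list overlapped, at 9.71 to 13.5 CPM in control MO and 12.2 to 14.9 CPM in neil2 MO libraries. These libraries cannot tell RNA supplied to the egg from RNA transcribed later, for this list or for cyclin A1. The part of either in the cyclin A1 values was not tested.

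**Figure D3:**
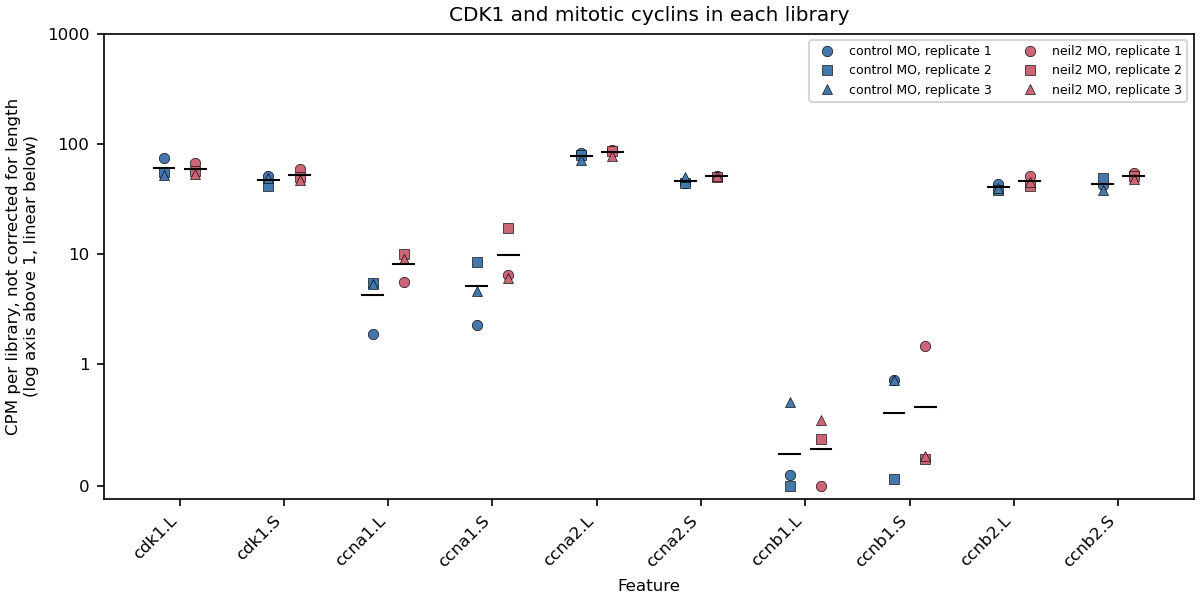
CPM of CDK1 and the mitotic cyclins in each library (vertical axis, logarithmic above 1 CPM and linear below), for each homeolog (horizontal axis), with control MO in blue, neil2 MO in red, a symbol for each replicate number and a line at each group mean. On the logarithmic axis ccna1.L (1.89 to 10.01 CPM) and ccna1.S (2.28 to 17.1 CPM) spread widest, apart from the ccnb1 features with few reads. CPM are not corrected for transcript length, so levels of different features are not comparable.

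Among the regulators that switch CDK1, cdc25b.S had the clearest difference. CDC25B is a phosphatase that starts CDK1 activation. cdc25b.S had 46.3, 60.4 and 82.1 CPM in control MO and 33.8, 44.96 and 45.1 CPM in neil2 MO libraries. All neil2 MO values lay below all control MO values, although the highest neil2 MO value was close to the lowest control MO value. The log2 fold change was -0.55 ± 0.24 without the block (adjusted p = 0.335), and -0.53 with it, where cdc25b.S fell (DESeq2 adjusted p = 0.00866). Without control MO replicate 3, the highest library, the unblocked value was -0.32. cdc25b.L, measured at 155, 159.5 and 200.4 and 132, 164 and 159 CPM, overlapped between groups (log2 fold change -0.12 ± 0.18, adjusted p = 0.966).

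The inhibitory kinases wee1 and wee2 were not called. wee1.L had 96.1, 93.1 and 99.9 CPM in control MO and 99.0, 96.1 and 94.6 CPM in neil2 MO libraries. wee1.S had 141, 174 and 166 and 153, 169 and 147 CPM. The groups overlapped in both, and the log2 fold changes were 0.06 ± 0.15 and 0.02 ± 0.17. Wee2, the form known from oocytes and eggs, was at low counts. wee2.L stood at 2.13, 1.21 and 1.99 CPM in control MO and 3.59, 1.65 and 2.54 CPM in neil2 MO with overlap (log2 fold change 0.59 ± 0.44, adjusted p = 0.786). wee2.S was measured at 0.533, 0.383 and 0.607 and 2.17, 0.385 and 0.458 CPM, and its log2 fold change of 1.03 ± 0.79, the highest of all tested members, rested on neil2 MO replicate 1 and became -0.19 without it. The membrane-bound inhibitory kinase pkmyt1.L had 14.7, 14.1 and 7.98 CPM in control MO and 6.85, 11.005 and 7.82 CPM in neil2 MO libraries, with overlap and a log2 fold change of -0.46 ± 0.30 (adjusted p = 0.713). Of the remaining CDC25 features, cdc25a.L was without overlap, at 51.4, 43.8 and 50.3 CPM in control MO and 52.7, 53.6 and 57.8 CPM in neil2 MO (log2 fold change 0.23 ± 0.16, adjusted p = 0.761), and cdc25a.S, cdc25c.L, cdc25c.S and pkmyt1.S had log2 fold changes between -0.07 and 0.41.

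Of the 9 tested features of the mitotic kinases, 7 had positive fold changes, the others being the aurka homeologs. No contrast between genes was tested. PLK1, which promotes mitotic entry, spindle assembly and cytokinesis, had higher means in neil2 MO for both homeologs. plk1.L was at 135, 114 and 139.9 CPM in control MO and 137, 122 and 149.7 CPM in neil2 MO, and plk1.S was at 153, 129 and 138 and 173, 142 and 148 CPM. Both overlapped between groups, with log2 fold changes of 0.13 ± 0.16 and 0.19 ± 0.16 (adjusted p = 0.946 and 0.841). Aurora A, the kinase of centrosomes and spindle poles, had lower means for both. aurka.L was at 52.9, 41.7 and 45.1 CPM in control MO and 46.8, 38.1 and 35.6 CPM in neil2 MO, and aurka.S was at 58.0, 47.0 and 65.8 and 38.3, 42.5 and 54.4 CPM. The groups overlapped again, and the log2 fold changes were -0.16 ± 0.19 and -0.28 ± 0.20 (adjusted p = 0.937 and 0.770).

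NEK2 separates the centrosomes before mitosis. nek2.L was at 129, 151 and 152 CPM in control MO and 181, 194 and 183 CPM in neil2 MO libraries, without overlap. Its log2 fold change was 0.43 ± 0.16 (adjusted p = 0.220), and with the replicate block 0.43 (adjusted p = 0.00655), below the minimum size of 0.5 in both. nek2.S overlapped between groups (log2 fold change 0.15 ± 0.19). plk4.S, a homeolog of the kinase that starts centriole duplication, had 3.97, 5.62 and 6.33 CPM in control MO and 4.67, 11.3 and 5.91 CPM in neil2 MO, with neil2 MO replicate 2 highest and overlap otherwise. Its log2 fold change was 0.53 ± 0.37 (adjusted p = 0.752) and 0.04 without that library. plk4.L and melk.L had log2 fold changes of 0.16 ± 0.19 and 0.25 ± 0.17.

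Spindle checkpoint transcripts had log2 fold changes between -0.26 and 0.12. BUB1 recruits the checkpoint proteins to kinetochores, and bub1.L had 63.2, 61.1 and 54.4 CPM in control MO and 49.3, 56.5 and 56.8 CPM in neil2 MO libraries. The groups overlapped, and the log2 fold change was -0.08 ± 0.17 (adjusted p = 0.984). TTK, also called Mps1, is the upstream kinase of the checkpoint. ttk.S had 57.3, 53.5 and 42.1 CPM in control MO and 47.1, 41.2 and 35.2 CPM in neil2 MO, lower in all 3 pairs but with overlap, and a log2 fold change of -0.26 ± 0.20 (adjusted p = 0.814). ttk.L was also lower in all 3 pairs but with overlap, and had a log2 fold change of -0.20 ± 0.21 (adjusted p = 0.911). The other tested checkpoint features (bub1b.L, bub3.L, bub3.S, mad2l1.L, mad2l1.S and mad1l1.L) had log2 fold changes between -0.07 and 0.12, and 5 of the 9 tested in this role were above 0.

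At the passage into anaphase, cdc20.S had the smallest adjusted p of the set. CDC20 activates the anaphase promoting complex, and its S homeolog was measured at 80.9, 82.6 and 84.4 CPM in control MO and 116, 104 and 107 CPM in neil2 MO libraries. The control MO values lay close together and all neil2 MO values were above them. The mean was 82.7 ± 1.75 CPM in control MO and 109 ± 6.07 CPM in neil2 MO (SD, n = 3), a log2 fold change of 0.45 ± 0.15 with a 95% interval from 0.15 to 0.75. This missed the adjusted p without the block (adjusted p = 0.114) and passed it with the block (adjusted p = 0.00606), but stayed below the size of 0.5 in both. With a minimum mean count of 10 it passed the adjusted p without the block too (DESeq2 adjusted p = 0.0687), again below that size (0.44). Leaving out any 1 library kept the fold change between 0.42 and 0.47. cdc20.L, at 41.5, 36.9 and 39.8 and 44.6, 36.1 and 45.4 CPM, overlapped between groups (log2 fold change 0.15 ± 0.17, adjusted p = 0.937).

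FZR1 activates the same complex after anaphase. fzr1.L was at 39.4, 44.9 and 41.7 CPM in control MO and 36.1, 37.4 and 35.2 CPM in neil2 MO, without overlap and in the opposite order to cdc20.S (log2 fold change -0.16 ± 0.17, adjusted p = 0.923). The ubiquitin-conjugating enzyme of the complex, ube2c, had log2 fold changes of 0.28 ± 0.18 (L) and 0.14 ± 0.20 (S). Separase, which cuts the link between sister chromatids, had values of -0.19 ± 0.22 (L) and 0.01 ± 0.21 (S). None of these passed the adjusted p.

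Kinesins move chromosomes and shape the spindle and the cell midzone. Of 14 tested kinesin features 11 had positive fold changes, with a median of 0.23. Those without overlap are given by library. kif22.L, a homeolog of the chromosome-arm kinesin, had 82.2, 79.3 and 75.6 CPM in control MO and 93.7, 99.8 and 88.7 CPM in neil2 MO (log2 fold change 0.31 ± 0.16, adjusted p = 0.527). kif22.S had 79.3, 80.4 and 94.1 and 94.8, 95.8 and 102 CPM (log2 fold change 0.26 ± 0.16, adjusted p = 0.680). kif23.S, a homeolog of the cytokinesis kinesin MKLP1, had 22.9, 21.3 and 19.1 and 28.0, 28.0 and 26.5 CPM. With the replicate block, kif22.L passed the adjusted p in edgeR (adjusted p = 0.0862), at a size below 0.5, but not in DESeq2 (adjusted p = 0.122). kif22.S passed it in neither tool. For kif23.S the log2 fold change was 0.43 ± 0.18 (adjusted p = 0.319) and 0.44 with the replicate block (adjusted p = 0.0759), while kif23.L was at -0.02 ± 0.16. KIF11, the motor that pushes the spindle poles apart, had values of 0.23 ± 0.18 (L) and 0.14 ± 0.18 (S), both with overlap. kif15.S, a homeolog of a motor that backs up KIF11, stood in the opposite order, at 84.5, 88.6 and 90.3 CPM in control MO and 63.9, 74.1 and 75.2 CPM in neil2 MO, without overlap (log2 fold change -0.25 ± 0.16, adjusted p = 0.725). The other tested kinesins (kif15.L, kif18a.L, both kif20a homeologs, kif20b.S and both kif2c homeologs) had log2 fold changes between -0.15 and 0.36. Of these, kif20a.S and kif2c.S passed the adjusted p in edgeR with the block (0.0660 and 0.0712), at sizes below 0.5. Neither passed it in DESeq2 with the block (adjusted p = 0.103 and 0.118).

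Kinetochore genes were spread on both sides of 0, with 7 of 12 tested features above it and a median of 0.04. CENP-E, a kinesin that carries chromosomes to the spindle equator, had 88.5, 77.7 and 70.6 CPM for its L homeolog in control MO and 97.1, 92.4 and 106 CPM in neil2 MO libraries. The groups did not overlap, and the log2 fold change was 0.37 ± 0.16 (adjusted p = 0.353 without and 0.0594 with the replicate block). The S homeolog, cenpe.S, was at 0.07 ± 0.21. cenpf.L, which encodes a large protein of the outer kinetochore, was also without overlap, at 115, 118 and 104 and 124, 128 and 140.5 CPM (log2 fold change 0.27 ± 0.16, adjusted p = 0.630). cenph.L, of the inner kinetochore, was in the opposite order, at 23.3, 19.7 and 21.5 CPM in control MO and 16.7, 17.9 and 14.9 CPM in neil2 MO, with a log2 fold change of -0.33 ± 0.20 (adjusted p = 0.661). The NDC80 complex, which grips microtubules, had values between -0.13 (ndc80.L) and 0.38 (spc24.L) over its 6 tested features. cenpa.L, the centromeric histone H3 variant, was at -0.01 ± 0.25, and cenpi.L was at 0.07 ± 0.21.

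Among the spindle and cytokinesis genes, nusap1.S had the only log2 fold change beyond 0.1 in either direction. NUSAP1 binds and bundles spindle microtubules near chromosomes. nusap1.S had 10.9, 11.7 and 11.7 CPM in control MO and 16.8, 18.9 and 12.44 CPM in neil2 MO libraries. The neil2 MO values were all above control, and replicate 3 was barely so. The log2 fold change was 0.55 ± 0.24 in DESeq2 (adjusted p = 0.348, and 0.114 with the replicate block). edgeR with the block called it (0.52, adjusted p = 0.0463), and DESeq2 without the block called it when neil2 MO replicate 3 was left out (0.71, adjusted p = 0.0974). nusap1.L had 38.8, 35.1 and 35.8 and 37.2, 37.1 and 34.4 CPM and a log2 fold change of 0.04 ± 0.17. The other 7 features of this role (anln.L and the homeologs of ect2, prc1 and racgap1) had log2 fold changes between -0.06 and 0.09.

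**Figure D4:**
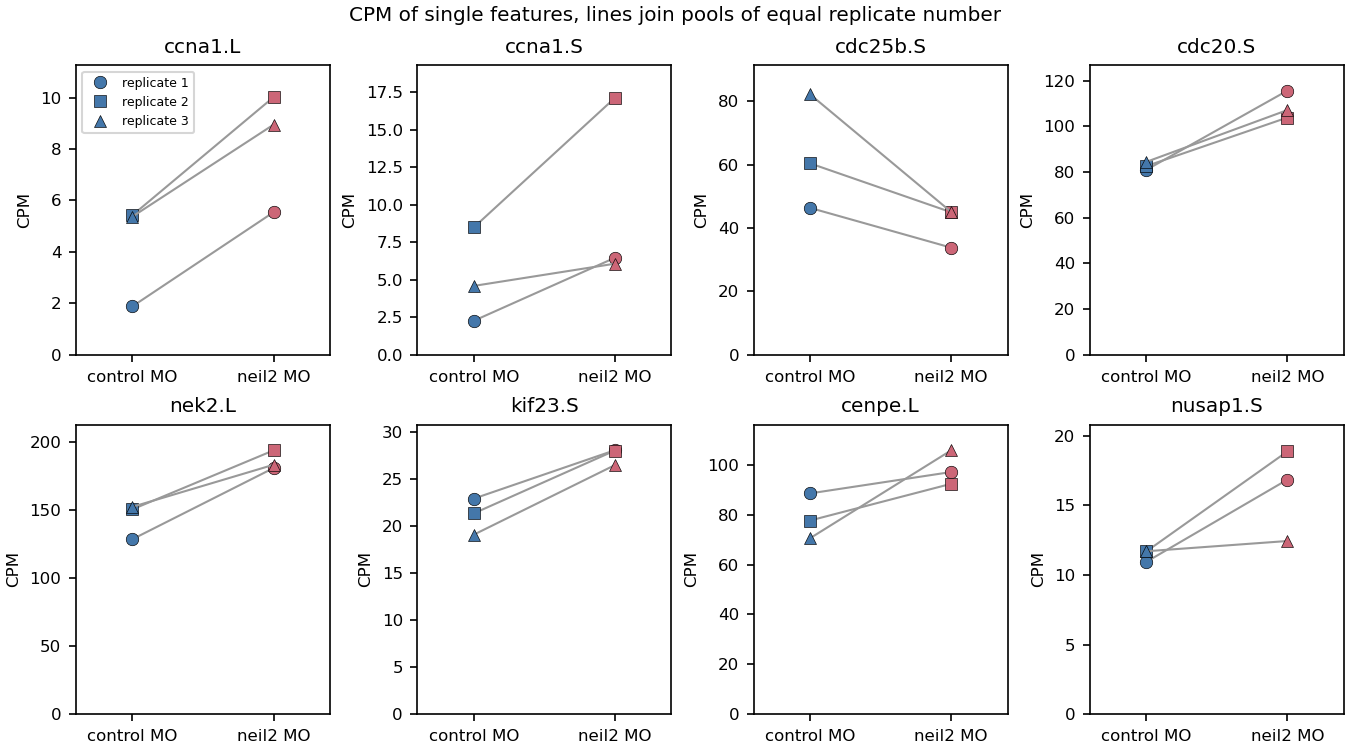
CPM (vertical axes, from 0) of 8 mitotic features in control MO (blue) and neil2 MO (red) pools, with lines joining pools of equal replicate number. Shown are the 7 features that passed the adjusted p in DESeq2 with the replicate block at any size, and nusap1.S, called by edgeR with the block. cdc25b.S runs downward in all 3 pairs (46.3, 60.4 and 82.1 to 33.8, 44.96 and 45.06 CPM) and the other 7 run upward in all 3 pairs. This choice favours features with the same direction in all pairs, so their agreement is no separate evidence.

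Chromosome structure genes encode topoisomerase II and the subunits of condensin, which untangle and compact chromosomes. top2a.L had 468, 567 and 502 CPM in control MO and 496, 552 and 540.4 CPM in neil2 MO, with overlap and a log2 fold change of 0.10 ± 0.16 (95% interval from -0.22 to 0.42, adjusted p = 0.974). smc2.S had 3.73, 2.36 and 2.77 and 2.72, 1.32 and 1.29 CPM, with overlap and the lowest log2 fold change of all tested members at -0.69 ± 0.43 (adjusted p = 0.686). edgeR with the replicate block called it lower (-0.72, adjusted p = 0.0926), and DESeq2 with the block did not (adjusted p = 0.369). smc2.L carried nearly all reads of that gene, at 142, 153 and 124 and 142, 158 and 129 CPM, and its log2 fold change was 0.09 ± 0.18. smc4.L, ncapd2.S, ncapg.L, ncaph.L and ncaph.S were between -0.09 and 0.15.

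For the markers of proliferation no change was detected. mki67.L, which encodes the chromosome surface protein Ki-67 of cycling cells, had 331, 336 and 296 CPM in control MO and 298, 355 and 347 CPM in neil2 MO, and mki67.S had 186, 219 and 151 and 179.7, 204 and 182 CPM. Both overlapped between groups, and the log2 fold changes were 0.11 ± 0.16 and 0.08 ± 0.19 with 95% intervals from -0.21 to 0.43 and from -0.29 to 0.45. FOXM1 is a transcription factor of the genes of late cell cycle. foxm1.S had 48.4, 49.3 and 64.8 CPM in control MO and 54.4, 53.7 and 76.8 CPM in neil2 MO, with replicate 3 highest in both groups, overlap between the groups and a log2 fold change of 0.24 ± 0.21 (adjusted p = 0.863). foxm1.L stayed at or under 1.15 CPM and was not tested.

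Whether pools of equal number shared a level of mitotic transcripts was asked with a likelihood ratio test of the replicate number in DESeq2. It called 13 of 92 members (14.1%), against 17.1% of 23465 features. edgeR called 25 of 93 (26.9%), against 31.4% of 24531. The smallest adjusted p-values were those of ccna1.S (1.84e-05), kif20a.S (6.26e-05) and bub3.S (0.00584). kif20a.S, a kinesin of cytokinesis, had 42.6, 34.9 and 15.7 CPM in control MO and 47.8, 39.1 and 28.6 CPM in neil2 MO, and was lowest in replicate 3 of both groups. bub3.S, a checkpoint protein, had 37.9, 29.1 and 55.8 and 40.9, 31.1 and 47.6 CPM and was highest in replicate 3 of both groups. For ccna1.S replicate 2 was highest in both groups, as given above.

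The 13 features differed in which pools were high. Their replicate 3 mean lay above the mean of replicates 1 and 2 in 7 and below it in 6. Replicate 3 was the highest library of both groups in 6 features and the lowest of both groups in 4. The 13 comprised ccna1.L, ccna1.S and cdc25b.S, the 3 features that DESeq2 called for the Morpholino with the replicate block, together with espl1.L, foxm1.S, ncapd2.S, spc24.L, cenpa.L, kif15.L, cdc25c.S and ndc80.L beside kif20a.S and bub3.S. The labels do not say what the number stands for.

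**Figure D5:**
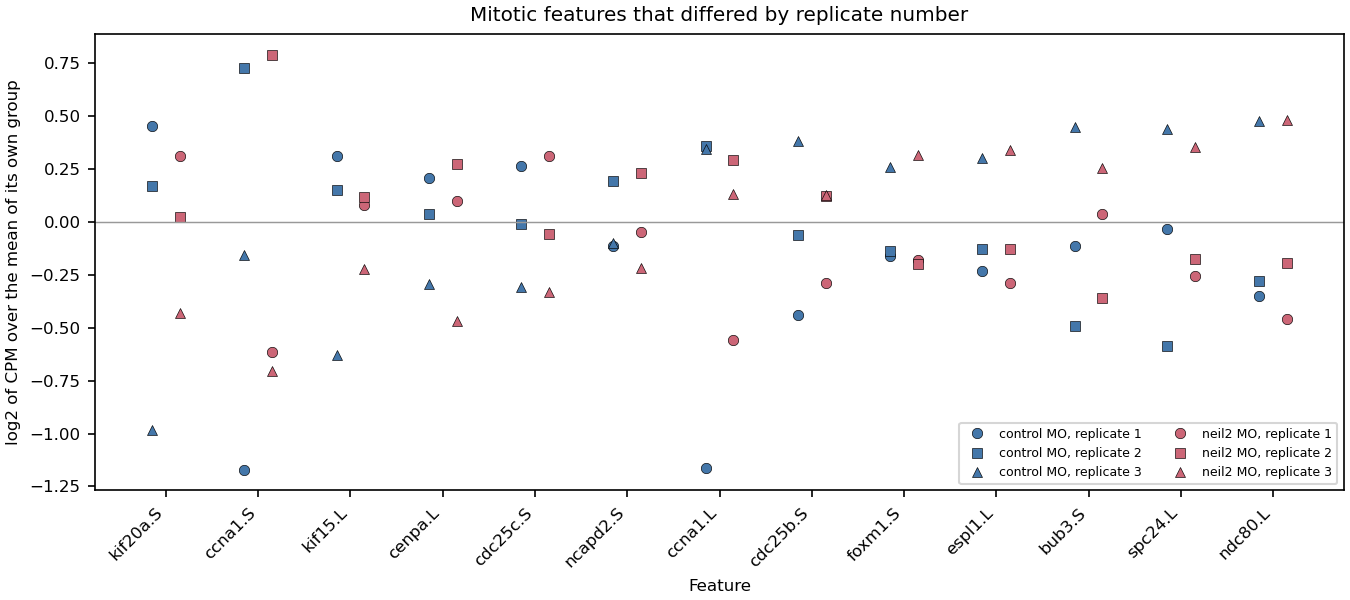
Log2 of CPM over the mean of its own group (vertical axis) in each library for the 13 mitotic features that differed by replicate number (horizontal axis), with control MO in blue, neil2 MO in red and a symbol for each replicate number. Triangles (replicate 3) are the highest of both groups in 6 features and the lowest of both groups in 4.

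The response of the 2 homeologs of a gene was compared by the change of their ratio between groups, in which gene length cancels. Both homeologs reached a mean normalized count of 10 in 36 of the 40 pairs. The ratio of L to S was called different between groups for 0 of 36 pairs by limma, against 0.441% of 7252 pairs, and for 0 of 36 with the replicate block, against 2.84%. At an unadjusted p below 0.05 there was 1 of 36 pairs (2.78%), nusap1, against 10.4% of all pairs. Its reads were 78.0%, 75.03% and 75.4% on L in control MO and 68.8%, 66.3% and 73.4% on L in neil2 MO libraries. The L share was lower in all neil2 MO libraries, with a log2 ratio change of -0.48 ± 0.18 (limma adjusted p = 0.433). Changes of smc2 (0.82 ± 0.45, adjusted p = 0.622) and pkmyt1 (-0.58 ± 0.40, adjusted p = 0.698) were larger but less precise. In smc2 between 97.4% and 99.2% of reads were on L in all libraries. Both homeologs had the same sign of fold change in 28 pairs (77.8%), against 65.6% of all pairs, and the median size of the ratio change was 0.12 against 0.19. Homeologs that are near identical over a read share reads that default counting leaves out, so these shares describe the reads that could be assigned. The shares on L are not corrected for transcript length.

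Mitotic genes outside the set were counted for context, from lists drawn up with earlier results of these data known. Of 95 tested features of 62 other mitotic genes, 2 were higher (cdca8.S, a chromosomal passenger subunit, and ckap2.S, a spindle protein) and 1 was lower (cks1b.L, a CDK-binding protein), with a median log2 fold change of 0.05, against the 1.17% higher and 1.12% lower of all features. edgeR without the block called cdca8.S and ckap2.S but not cks1b.L, and 7 of the 95 had an unadjusted p below 0.05 in DESeq2. With the replicate block both tools called 3 higher (cdca8.S, ckap2.S and cks1b.S) and 1 lower (cks1b.L). The shares of all features called with the block were 3.14% higher and 2.74% lower in DESeq2, and 4.17% and 5.25% in edgeR. cdca8.S was at 7.26, 5.43 and 4.16 CPM in control MO and 29.5, 31.0 and 23.9 CPM in neil2 MO, without overlap (log2 fold change 2.37, adjusted p = 1e-17). cks1b.L was at 18.8, 18.7 and 21.5 CPM in control MO and 8.75, 13.9 and 9.74 CPM in neil2 MO (log2 fold change -0.80, adjusted p = 0.0538). cks1b.S went the other way without overlap, at 24.5, 21.8 and 28.9 against 33.0, 32.4 and 39.9 CPM. Its log2 fold change was 0.54 (DESeq2 adjusted p = 0.153). Among the MuvB, DREAM and E2F genes, which switch cell cycle transcription, 1 of 34 tested features was higher, the pocket protein gene rbl1.S (log2 fold change 0.61, adjusted p = 0.0843), against 1.17% of all features. Of the same 34, edgeR called 0 and 4 had an unadjusted p below 0.05 in DESeq2, and with the replicate block both tools called 2 higher (rbl1.S and rbl2.L) and 2 lower (lin54.S and lin9.L). Of 19 tested features of the G1 to S list, DESeq2 called 0 in either direction and 0 had an unadjusted p below 0.05, and edgeR also called 0.

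Tissue markers of the same libraries bear on the make-up of the pools. Neural markers summed to between 838 and 896 CPM in control MO and between 672 and 777 CPM in neil2 MO, with 0 of 13 tested fold changes above 0 and sox1.S lower (log2 fold change -1.09, DESeq2 adjusted p = 0.0116). edgeR without the block called 0 neural features, and 3 of the 13 had an unadjusted p below 0.05 in DESeq2. With the replicate block, DESeq2 called 1 of 13 lower (sox1.S), against 2.74% of all features. edgeR with the block called 2 of 13 lower (sox1.L and sox1.S), against 5.25%. Muscle markers summed to between 4467 and 5127 CPM and between 3818 and 4046 CPM, with 4 of 12 fold changes above 0. Of these 12, edgeR with the block called 1 lower (des.1.L), and DESeq2 called 0 with or without it. Multiciliated cell markers, which include a relative of cdc20, overlapped at 158 to 230.4 CPM in control MO and 201.1 to 261 CPM in neil2 MO, with 7 of 8 fold changes above 0 and tekt2.L higher (log2 fold change 1.21, DESeq2 adjusted p = 0.000187, and called by edgeR as well). With the replicate block DESeq2 called 3 of 7 higher (tekt2.L, foxj1.L and foxj1.S), against 3.14% of all features. edgeR with the block called 4 of 8 higher (cdc20b.L, ccno.S, tekt2.L and foxj1.S), against 4.17%, and not foxj1.L. The sums of the neural crest (323 to 413 and 313 to 389 CPM), epidermis (4345 to 4727 and 4133 to 4566 CPM) and endoderm (2381 to 3752 and 2235 to 3068 CPM) lists overlapped between groups. The part of a different make-up of the pools in the mitotic values was not tested.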

How the data were processed

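Polyadenylated RNA of 6 libraries was sequenced, 3 of control MO and 3 of neil2 MO embryos, grouped by their titles. The deposited values are raw counts of reads per gene, without normalization. The authors aligned single-end reads to the X. laevis v9.2 assembly with STAR 2.5.4b, allowing 2 mismatches, and counted them on the JGI annotation with featureCounts 1.5.1 at default settings. Under these, reads that map to several places or overlap several genes are not counted and strand is not used. No pair of libraries matched within sampling noise by a chi-square statistic over features.

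The member genes and all lists were chosen with earlier results of these data known. Models were fitted to all features, and the members' results were read from them. The main test was the DESeq2 Wald test (DESeq2 1.42.0 in R 4.3.3, unshrunken log2 fold changes, independent filtering), as the study's methods name DESeq2, with its thresholds of 0.1 for the adjusted p and 0.5 for the log2 fold change. As a second tool, edgeR 4.0.16 was run with its quasi-likelihood test and TMM scaling. Ratios of L to S were tested with limma 3.58.1 on log2 of normalized counts plus 0.5. CPM were computed from library totals. Deviations from the group means correlated between libraries of equal number (r = 0.585, 0.566 and 0.632 over 23779 features for replicates 1 to 3), so the numbers from the titles were accepted as pairs and a fit with the replicate number as a block was run. Tests were run on simulated data first.

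Named features were the homeologs present of 15 genes (cdk1, ccnb1, ccnb2, ccna1, ccna2, plk1, aurka, foxm1, top2a, mki67, cdc20, bub1, cdc25b, wee1 and wee2), the 5 largest increases and 5 largest decreases at a mean normalized count of at least 50, every member called by any of the fits, the 3 smallest p-values for replicate number and the 3 largest changes of ratio. Others were named as examples of a role or where they were extreme, after their values were seen. Other alternatives were TMM factors in DESeq2, no independent filtering, a minimum mean count of 10, summed homeologs, no effect size filter, and leaving out each library. The fits without replicate 3 of both groups, and the edgeR test of replicate number over the features tested by DESeq2, were added after seeing the data. RefSeq v10.1 served for names and overlaps only (92 of 97 members matched), and no coordinates are given because the assemblies differ. Promoter and protein sequences and transcript lengths were not used here.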

Additional observations from a re-analysis of the deposited data

How the results depend on the processing

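The numbers of called members were 0 higher and 0 lower with DESeq2 and stayed so with edgeR, with TMM factors, with homeologs summed, with a minimum mean count, without independent filtering, without the effect size filter and without replicate 3 of both groups. With the replicate block, the paired fit, they were 2 higher and 1 lower in DESeq2 and 3 higher and 2 lower in edgeR. Leaving out 1 library gave 0 to 1 higher (ccna1.S without control MO replicate 2 and nusap1.S without neil2 MO replicate 3) and 0 lower. The block changed no other call of a named member. Members that differed by replicate number were 13, against 25 with edgeR, 24 with edgeR over the features that DESeq2 tested, and 2 to 3 when 1 replicate number was left out, which leaves 4 libraries. No share of all features is given for the calls without 1 library, for the 24 or for the 2 to 3. These counts are therefore not read as a result about the members. Non-overlapping members numbered 10 above and 4 below, against 18 and 2 with TMM factors, 22 (23.9%, all features 16.5%) and 15 (16.3%, all features 25.5%) without replicate 3 of both groups, and 11 to 16 above and 7 to 10 below without 1 library, where all features gave 8.56% to 11.4% above and 13.6% to 17.8% below. The excess of summed CPM was 2.84%, 6.36% with TMM factors and 1.94% to 3.52% without 1 library. No pair of homeologs was called for its ratio under any alternative run (0 in all, with 1 pair at an unadjusted p below 0.05 in limma). Of 502 fold changes of the 39 named members under alternatives, 21 had the other sign and were called in neither fit, and 10 were called. As the main fit called 0 members, no alternative could reverse a call. No change of wee2, which was at low counts, was called, and foxm1.L was not tested.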
